A study of Mus musculus with 8 samples.

Results

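The 10 genes described here write, erase or feed the repressive marks of chromatin, DNA methylation and the Polycomb marks on histones. They were examined in blood stem and progenitor cells that lack Traf6. They are the TET dioxygenase genes Tet1, Tet2 and Tet3, the DNA methyltransferase genes Dnmt1, Dnmt3a and Dnmt3b, the Polycomb genes Ezh2, Bmi1 and Asxl1, and the metabolic enzyme gene Idh2. The members were taken from a list of gene names and not by a rule on their values, although earlier results of these data were known. The same holds for the other gene lists below. All 10 members were found among the 24112 genes of each table. The cells were lineage-negative, Sca1+ and Kit+ (LSK), the bone marrow fraction enriched for stem and early progenitor cells, sorted from C57BL/6 mice that had been reconstituted by transplantation. The KO group (4 libraries) came from Traf6-/-;Vav-Cre+ marrow and the WT group (4 libraries) from Vav-Cre+ marrow, so Cre under the blood-cell promoter Vav was present in both. Host cells that survived the transplantation are not distinguished in bulk RNA. Traf6 encodes a ubiquitin ligase between Toll-like or interleukin-1 receptors and the transcription factor NF-κB, and the study asked whether its basal activity is needed for stem cell maintenance. Whether each library is a mouse of its own is not stated, so the p-values measure a spread between libraries that may be technical.

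DNMT3A and DNMT3B place new methyl groups on cytosine, and DNMT1 copies them to the daughter strand at replication. The TET enzymes oxidise 5-methylcytosine as a first step of its removal and need 2-oxoglutarate, which IDH2 makes in mitochondria. EZH2 is the catalytic subunit of Polycomb repressive complex 2 (PRC2), which methylates histone H3 at lysine 27, and BMI1 is a subunit of Polycomb repressive complex 1 (PRC1), which ubiquitinates histone H2A. ASXL1 is the partner of the deubiquitinase BAP1, which removes that ubiquitin. In people, DNMT3A, TET2 and ASXL1 are among the genes most often mutated in clonal hematopoiesis, and in mice Bmi1 is needed for stem cell self-renewal.

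Poly(A) RNA was sequenced and each gene has 1 value per library in RPKM, reads per kilobase of gene per mega reads of the library. Depth was estimated, roughly, from the steps between low values at 19.2 to 30.65 M (mega) reads in genes per library. Traf6 was at 0.613, 0.818, 0 and 0.00721 RPKM in KO1 to KO4, against 14.9, 3.52, 9.40 and 7.10 RPKM in WT1 to WT4, so its level went with the labels. By the labels, lane 5 held KO3 and KO4, and lane 4 held KO1, KO2 and every WT library. KO3, KO4 and WT2 stood apart: of 3943 genes with a mean above 20 RPKM they listed 175, 61 and 47 at 0, against 6 to 20 in the other 5 libraries. Results are therefore given also for lane 4 alone, which takes KO from KO1 and KO2; lane 5 holds KO libraries only and gives no value of its own. Of 11 LSK markers 11 had negative log2 differences (median -0.80), and 10 in lane 4 alone (median -0.68), where Cd48 was at 0.12; their summed level was 454.6 to 592.6 RPKM in KO and 654.8 to 716.2 RPKM in WT. Markers of granulocyte-monocyte progenitors, the myeloid cells downstream of LSK, had positive differences in 10 of 10 (median 1.45, and 2.06 in lane 4 alone, again 10 of 10), with sums of 2133 to 8048 RPKM in KO and 629.2 to 1865 RPKM in WT. All KO libraries lay above all WT libraries in 5 of these 10 markers, as in 2.05% of all genes tested. The mean log2 level of the list, relative to all genes tested, did overlap, at 1.43 to 3.62 in KO and 0.22 to 1.65 in WT, with KO4 below WT4. Elane, for one, was at 227.8 RPKM in KO4 and at 306.9 RPKM in WT4. These markers moved with the groups, KO4 least, and their part in the results below was not tested. Among 15 mature blood and stromal markers, whose sum was 53.4 to 78.2 RPKM in KO and 30.7 to 132.3 RPKM in WT, Cd79a, Ms4a1 and Col1a1 were listed at 0 in all libraries. Of the mature myeloid markers, chosen after their values were seen, Itgam, which encodes CD11b, was at 5.92, 6.65, 22.8 and 5.98 RPKM in KO1 to KO4, against 1.15, 2.52, 0.707 and 2.76 RPKM in WT1 to WT4, with no overlap (log2 difference 1.87 ± 0.56, limma adjusted p = 0.515). S100a8 was at 0.101 to 15.0 RPKM in KO and 0 to 2.27 RPKM in WT, and S100a9 at 0 to 35.7 RPKM in KO and 0 to 6.38 RPKM in WT, so both overlapped. Ly6a, which encodes Sca1, was at only 6.53 to 10.9 RPKM in KO and 7.31 to 11.8 RPKM in WT.

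None of the 10 genes passed the test between genotypes. The test was limma on log2(RPKM + 1) over the 11276 genes that reached 1 RPKM in 4 or more libraries, with Benjamini-Hochberg adjustment and a threshold of 0.05. All 10 genes reached that level. The test called 0 of the 11276 (percent called 0), and 847 had an unadjusted p under 0.05. Traf6 itself, the deleted gene, was not called (log2 difference -2.75 ± 0.53, limma adjusted p = 0.341). A gene that did not pass may therefore still differ. Of the 10 genes 8 had a negative log2 difference (KO minus WT), against 61.0% of all genes tested, and 2 a positive one, against 39%; their median difference was -0.22, against -0.14 for all. Dnmt3b was the sole gene of the 10 with an unadjusted p under 0.05, a class that held 4.74% of all genes as lower and 2.77% as higher. It was also the sole one in which all KO libraries lay below all WT libraries, as 3.88% of all genes did; the opposite pattern, found in 2.05% of all genes, was seen in 0 of the 10. The summed level of the 10 genes was 467.2 to 511.0 RPKM in KO and 452.1 to 548.9 RPKM in WT, so the groups overlapped.

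**Figure D1:**
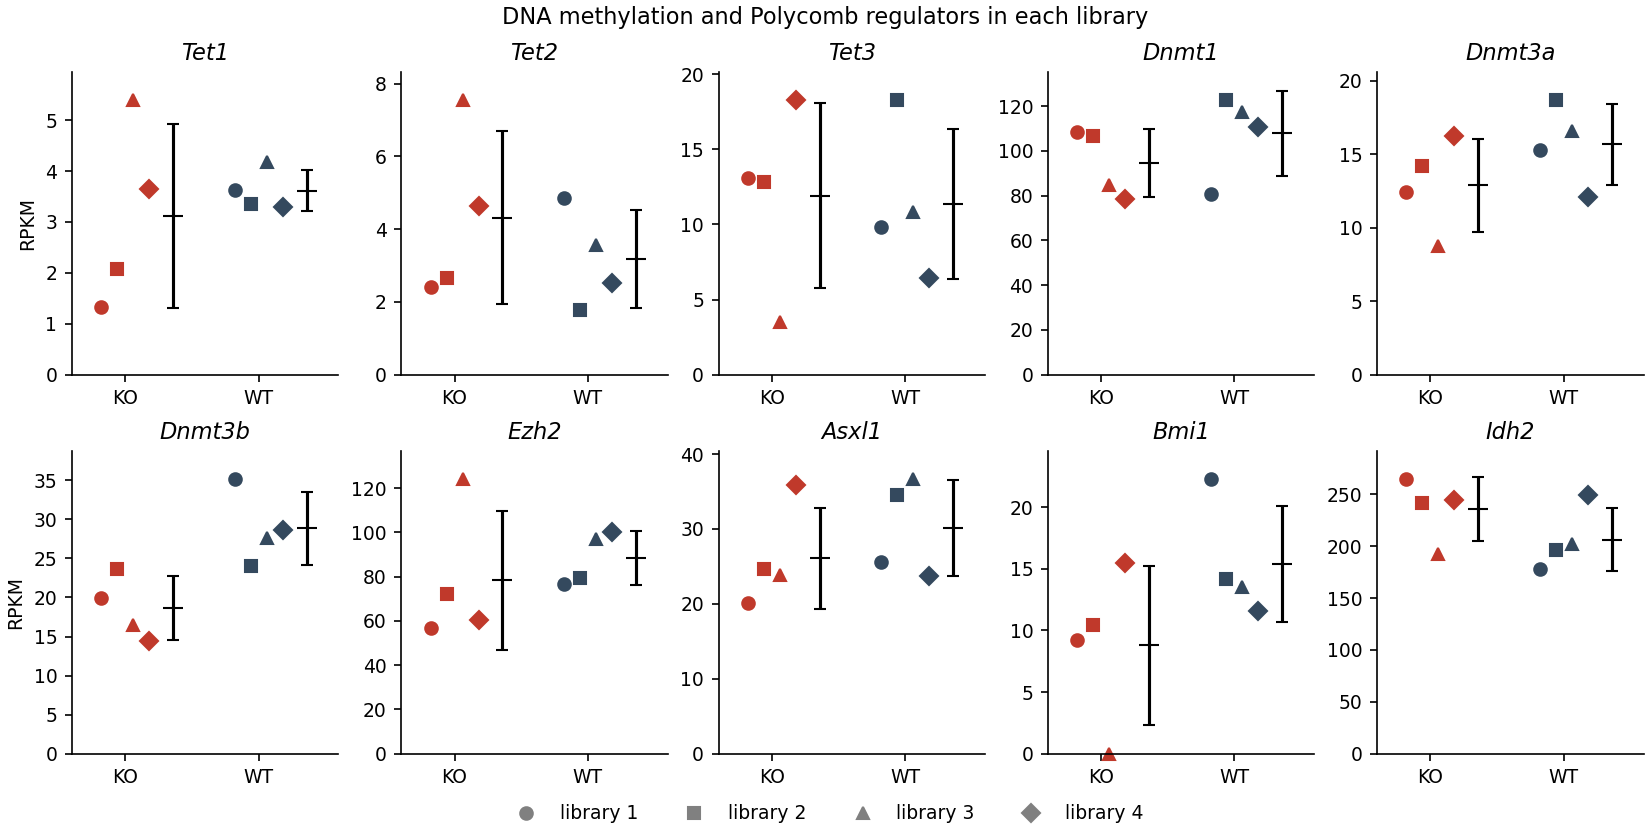
RPKM of each of the 10 genes (linear axes from 0) in the 4 KO (red, left) and 4 WT (dark, right) libraries, with one marker shape per library number and the mean ± SD beside each group. The groups overlap in all genes but Dnmt3b, and KO3 stands alone at 0.0123 RPKM for Bmi1 and at 124 RPKM for Ezh2.

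The 10 genes spanned a wide range of levels per length. Idh2 was highest, with a mean over all 8 libraries of 221 RPKM, followed by Dnmt1 at 101 and Ezh2 at 83.4 RPKM. Asxl1 at 28.1, Dnmt3b at 23.7, Dnmt3a at 14.3, Bmi1 at 12.1 and Tet3 at 11.6 RPKM came next, and Tet2 at 3.75 and Tet1 at 3.36 RPKM were lowest. Idh2 exceeded Dnmt1, and Ezh2 exceeded Asxl1, in 8 of 8 libraries. Bmi1 exceeded Tet3 in 3 of 8, Tet2 exceeded Tet1 in 5 of 8 and Asxl1 exceeded Dnmt3b in 6 of 8 libraries, so these neighbours could not be ordered. Taking the longest coding transcript, a value rested on about 316 to 19542 reads, except for 1 of the 80 values, Bmi1 in KO3, which rested on about 1 read.

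Dnmt3b is a de novo methyltransferase gene that is active in early embryos. It was at 19.9, 23.7, 16.5 and 14.4 RPKM in KO1 to KO4, against 35.2, 24.0, 27.6 and 28.6 RPKM in WT1 to WT4. The highest KO library, KO2, lay just below the lowest WT library, WT2. The means were 18.6 ± 4.07 RPKM in KO and 28.9 ± 4.64 RPKM in WT (SD, n = 4 each). The log2 difference was -0.61 ± 0.24 (SE), with a 95% interval of -1.14 to -0.09 and a limma adjusted p of 0.634. A 2-sided exact permutation test gave p = 0.0286, which is the lower limit for 70 ways of splitting 8 libraries evenly. In lane 4 alone the difference was -0.38 ± 0.23 (limma adjusted p = 0.580). The unadjusted limma p, 0.0267 over 8 libraries, was 0.137 in lane 4 alone, 0.163 with lane as a covariate, 0.0505 with library weights and 0.0642 with the replicate block, and from 0.0206 to 0.0807 (without WT1) when each library was left out. Fewer cells of a type and less RNA per cell cannot be told apart in bulk RNA, and the lower stem cell markers and higher myeloid markers went with the same groups; their part in the Dnmt3b level was not tested.

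The study's question concerns NF-κB, so the bases before the start sites of the 10 genes (RefSeq sequences, build GRCm38.p6) were searched on both strands for the NF-κB consensus. In the 250 bases before a start site, 7.25% of 32851 windows of all genes held a match, and 10.4% of those with at least 15 CpG dinucleotides did. The 10 genes have 14 such windows, and 3 of these 14 held a match, those of Dnmt3b, Asxl1 and Idh2. Their windows are shown 5′ to 3′ on the strand of the gene, since these are the ones in which a match was found, with the matches in capitals.
Dnmt3b, chr2:153649199-153649448, plus strand: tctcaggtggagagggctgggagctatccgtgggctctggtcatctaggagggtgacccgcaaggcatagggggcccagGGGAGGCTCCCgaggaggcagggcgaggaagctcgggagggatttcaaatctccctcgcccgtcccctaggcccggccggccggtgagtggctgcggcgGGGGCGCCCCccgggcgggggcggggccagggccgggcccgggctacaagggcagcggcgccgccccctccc
Asxl1, chr2:153345580-153345829, plus strand: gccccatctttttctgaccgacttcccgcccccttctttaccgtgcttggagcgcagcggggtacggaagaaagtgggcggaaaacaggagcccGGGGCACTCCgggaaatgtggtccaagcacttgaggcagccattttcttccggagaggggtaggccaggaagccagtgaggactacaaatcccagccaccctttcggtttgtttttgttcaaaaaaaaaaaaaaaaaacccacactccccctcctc
Idh2, chr7:80115351-80115600, minus strand: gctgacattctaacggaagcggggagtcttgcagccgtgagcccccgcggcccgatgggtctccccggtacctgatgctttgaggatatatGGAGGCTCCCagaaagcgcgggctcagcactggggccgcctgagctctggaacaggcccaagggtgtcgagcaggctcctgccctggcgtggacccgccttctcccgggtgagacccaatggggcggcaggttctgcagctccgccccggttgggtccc
Dnmt3b held 3 matches, a pair of which overlap, Asxl1 held 1 and Idh2 held 1. The Dnmt3b window had 21 CpG dinucleotides, the Asxl1 window 11 and the Idh2 window 17, against a median of 6 over all windows, and 11 of the 14 windows of the 10 genes had at least 15, as 27.3% of all windows did. The log2 differences of the 3 genes with a match were -0.61, -0.21 and 0.19, so they did not share a direction. A match describes the letters of the window and shows no binding.

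Dnmt1, the maintenance methyltransferase gene, was the most abundant of the DNMT genes in every library. It was at 109, 107, 84.6 and 78.7 RPKM in KO1 to KO4, against 80.6, 123, 117 and 111 RPKM in WT1 to WT4. The groups overlapped: KO4, WT1 and KO3 were the lowest and WT2 the highest. KO and WT differed on the log2 scale by -0.18 ± 0.20 (95% interval -0.62 to 0.26, limma adjusted p = 0.807), and in lane 4 alone it was 0.02 ± 0.21. Uhrf1, which brings DNMT1 to newly replicated DNA, was at 83.1, 79.4, 77.6 and 56.5 RPKM in KO and 59.6, 58.3, 57.3 and 71.5 RPKM in WT (log2 difference 0.25 ± 0.19, limma adjusted p = 0.738; 0.40 ± 0.18 in lane 4 alone).

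Dnmt3a, the other de novo enzyme gene, was at 12.4, 14.2, 8.76 and 16.2 RPKM in KO1 to KO4, against 15.3, 18.7, 16.6 and 12.1 RPKM in WT1 to WT4. KO3 lay below all WT libraries and the other KO libraries within their range. KO minus WT was -0.28 ± 0.28 on the log2 scale (95% interval -0.91 to 0.35, limma adjusted p = 0.794) and -0.21 ± 0.26 in lane 4 alone. Within a library, where the scaling between libraries cancels, Dnmt1 made up 72.0 to 77.1% of the summed DNMT RPKM in KO and 61.5 to 74.2% in WT (exact p = 0.2, adjusted over 11 shares 0.733). Dnmt3a made up 10.3 ± 3.08% in KO and 10.3 ± 1.66% in WT (SD, n = 4 each), and Dnmt3b 14.7 ± 1.35% in KO and 19.3 ± 5.31% in WT. The Dnmt3b share was 14.1, 16.4, 15.0 and 13.2% in KO1 to KO4, against 26.8, 14.5, 17.1 and 18.9% in WT1 to WT4, and WT2 lay within the KO range. Its 2-sided exact permutation p was 0.0857, the smallest of 11 shares tested, and adjusted over the 11 it was 0.733. The lower limit of this test is 0.0286, and a single share at that limit would not pass after adjustment over 11. The adjusted values therefore do not show that shares were unchanged. Of Dnmt3a and Dnmt3b together, Dnmt3b made up 59.2 ± 8.21% in KO and 64.7 ± 6.69% in WT (exact p = 0.429, adjusted 0.838).

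**Figure D2:**
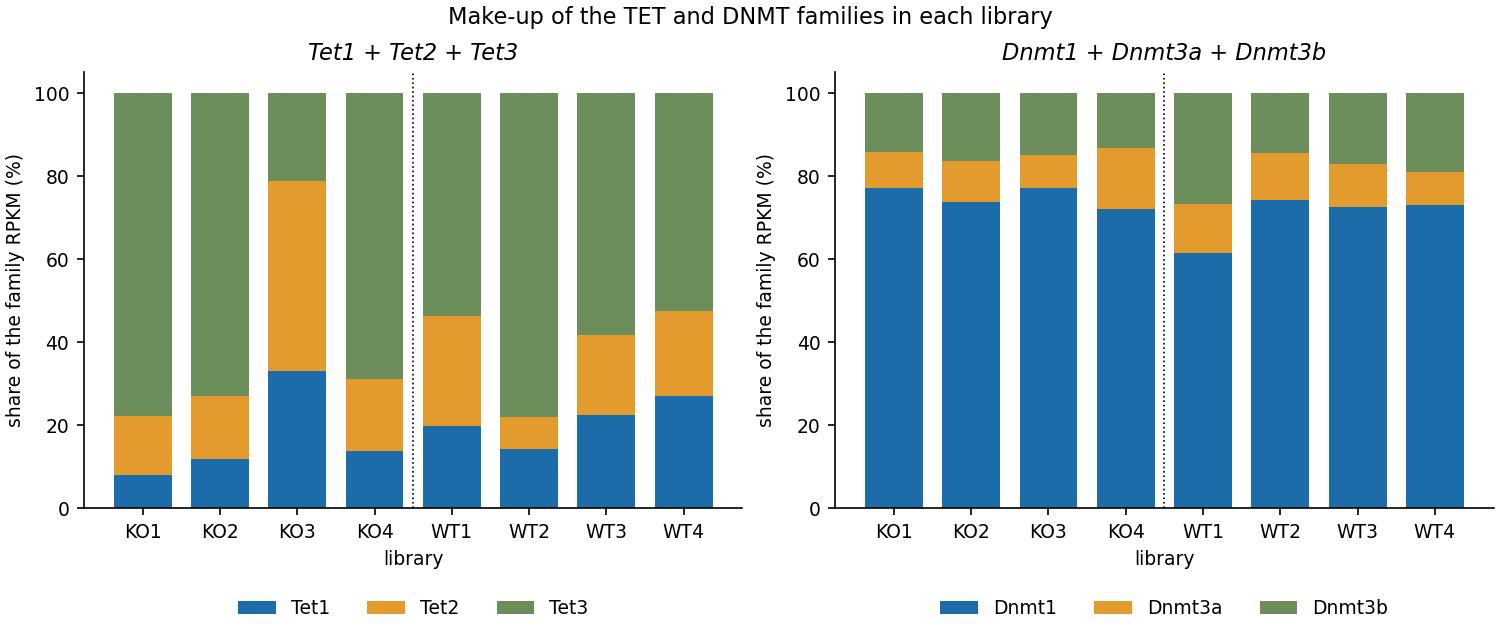
Share (%) of each TET gene (left) and each DNMT gene (right) in the summed RPKM of its family, one bar per library, KO libraries left of the dotted line and WT libraries right of it. Dnmt1 makes up 72.0 to 77.1% in KO and 61.5 to 74.2% in WT, and KO3 is the sole library in which Tet3 is below 50% of the TET sum, at 21.1%.

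No TET gene passed the test between genotypes, and the groups overlapped in each, but their intervals were wide and a difference may remain. Tet1 was at 1.32, 2.07, 5.40 and 3.65 RPKM in KO1 to KO4, against 3.63, 3.35, 4.17 and 3.29 RPKM in WT1 to WT4. KO1 and KO2 lay below all WT libraries, and KO3 lay above them. The log2 difference was -0.27 ± 0.48 (95% interval -1.33 to 0.80, limma adjusted p = 0.886), -0.78 ± 0.40 in lane 4 alone (limma adjusted p = 0.511) and -0.03 without KO1. Tet2, the family member most often mutated in blood, was at 2.41, 2.65, 7.56 and 4.63 RPKM in KO1 to KO4, against 4.87, 1.79, 3.56 and 2.51 RPKM in WT1 to WT4. KO3 was the highest and WT2 the lowest. Its log2 difference was 0.30 ± 0.50 (95% interval -0.82 to 1.42, limma adjusted p = 0.877) and turned to -0.19 ± 0.46 in lane 4 alone.

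Tet3 was the most abundant TET gene in 7 of 8 libraries. It was at 13.1, 12.8, 3.48 and 18.3 RPKM in KO1 to KO4, against 9.85, 18.3, 10.8 and 6.44 RPKM in WT1 to WT4. KO3 was the lowest of all libraries, and KO4 and WT2 were the highest. The log2 difference was -0.03 ± 0.50 (95% interval -1.14 to 1.07, limma adjusted p = 0.989), 0.26 ± 0.38 in lane 4 alone and 0.42 without KO3. Tet3 made up 77.8, 73.1, 21.1 and 68.9% of the TET sum in KO1 to KO4, against 53.7, 78.1, 58.4 and 52.6% in WT1 to WT4 (exact p = 0.971, adjusted 1.0). Without KO3 the difference in this share was 12.6 percentage points, against -0.468 with it.

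Idh2 supplies 2-oxoglutarate, the cofactor that the TET enzymes use. It was at 265, 241.5, 193 and 244 RPKM in KO1 to KO4, against 178, 197, 202 and 249.7 RPKM in WT1 to WT4. KO1 lay above all WT libraries and the other KO libraries within their range. Its log2 difference was 0.19 ± 0.17 (95% interval -0.18 to 0.57, limma adjusted p = 0.769) and 0.30 ± 0.18 in lane 4 alone. Its cytosolic paralog Idh1 was at 17.7, 14.2, 11.8 and 7.66 RPKM in KO1 to KO4, against 8.34, 7.77, 9.05 and 8.35 RPKM in WT1 to WT4. KO1 to KO3 exceeded all WT libraries and KO4 lay below them (log2 difference 0.51 ± 0.33, limma adjusted p = 0.713; 0.85 ± 0.26 in lane 4 alone). Idh2 made up 94.8 ± 1.44% of the sum of both in KO and 96.0 ± 0.556% in WT (exact p = 0.171, adjusted 0.733).

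Ezh2, the PRC2 methyltransferase gene, was at 56.6, 72.1, 124 and 60.2 RPKM in KO1 to KO4, against 76.8, 79.4, 97.1 and 100.3 RPKM in WT1 to WT4. KO1, KO2 and KO4 lay below all WT libraries, and KO3 lay above them. For Ezh2 the log2 difference was -0.24 ± 0.26 (95% interval -0.81 to 0.33, limma adjusted p = 0.806), -0.48 without KO3 (limma adjusted p = 0.488) and -0.45 ± 0.20 in lane 4 alone (limma adjusted p = 0.458). Ezh1, its less abundant paralog, was at 5.18 ± 1.5 RPKM in KO and 7.34 ± 3.07 RPKM in WT (log2 difference -0.39 ± 0.44, and -0.69 ± 0.42 in lane 4 alone). Ezh2 made up 93.4 ± 2.39% of the sum of both in KO and 92.1 ± 3.88% in WT (exact p = 0.657, adjusted 1.0).

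The S-phase and cycling genes are given beside Ezh2, Dnmt1 and Uhrf1, whose levels are known to be higher in dividing cells. Of 16 tested 5 had positive and 11 negative log2 differences (median -0.10), where 61.0% of all genes tested were negative (median -0.14). Their summed level was 1590 to 1764 RPKM in KO and 1640 to 1853 RPKM in WT. Their mean log2 level, relative to all genes tested, was 2.46 to 2.89 in KO and 2.36 to 2.55 in WT. Mki67, a marker of cycling cells, was at 50.8, 73.3, 67.4 and 76.7 RPKM in KO, against 94.6, 79.6, 83.9 and 88.9 RPKM in WT (log2 difference -0.38 ± 0.18, limma adjusted p = 0.665). It was the 1 gene of the 16 without overlap, and 3.88% of all genes tested lay lower in KO without overlap. Top2a, Pcna and Mcm7, the most abundant of the list, had log2 differences of -0.15 ± 0.15, -0.02 ± 0.21 and -0.09 ± 0.17. In lane 4 alone 10 of the 16 were positive (median 0.05), Pcna and Mcm7 among them at 0.06 and 0.04. The 6 negative ones there included Mki67 at -0.50 ± 0.20 and Top2a at -0.21 ± 0.17. Mki67 was the 1 gene of the 16 with an unadjusted limma p under 0.05 there (0.0371), as 11% of all genes had. The part of cycling in the levels of the 10 genes was not tested.

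Bmi1, the PRC1 gene, had the lowest difference of the 10 genes, and 1 library set it. It was at 9.21, 10.4, 0.0123 and 15.5 RPKM in KO1 to KO4, against 22.3, 14.2, 13.5 and 11.6 RPKM in WT1 to WT4. KO1 and KO2 lay below all WT libraries, KO3 was almost at 0, and KO4 lay above 3 of them. The log2 difference was -1.27 ± 0.78 (95% interval -3.00 to 0.47, limma adjusted p = 0.704), -0.36 without KO3 and -0.56 ± 0.31 in lane 4 alone. Pcgf2, the paralog that can take its place in PRC1, was at 3.61 and 4.28 RPKM in KO1 and KO2, listed at 0 in KO3 and KO4, and at 4.55, 4.64, 2.76 and 5.46 RPKM in WT1 to WT4. Its log2 difference was -1.24 ± 0.67, and -0.09 ± 0.39 in lane 4 alone. The share of Bmi1 in the sum of both, 85.7 ± 16.6% in KO and 77.4 ± 7.23% in WT, therefore rests for KO3 on a value of almost 0 (exact p = 0.371, adjusted 0.838).

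Asxl1 was at 20.1, 24.6, 23.8 and 35.8 RPKM in KO1 to KO4, against 25.6, 34.5, 36.7 and 23.7 RPKM in WT1 to WT4. KO1 lay below all WT libraries and the other KO libraries within their range. Its log2 difference was -0.21 ± 0.25 (95% interval -0.77 to 0.35, limma adjusted p = 0.822) and -0.40 ± 0.26 in lane 4 alone. Asxl2, its paralog, was at 5.71 ± 0.904 RPKM in KO and 6.95 ± 2.74 RPKM in WT, and Asxl1 made up 81.7 ± 3.42% of the sum of both in KO and 80.8 ± 8.54% in WT (exact p = 0.886, adjusted 1.0). Bap1, the deubiquitinase gene, was at 30.8 ± 10.3 RPKM in KO and 23.5 ± 5.35 RPKM in WT (log2 difference 0.36 ± 0.28, limma adjusted p = 0.749). Bap1 stood at 0.06 ± 0.28 in lane 4 alone and turned to -0.11 ± 0.21 on leaving out KO3, KO4 and WT2.

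**Figure D3:**
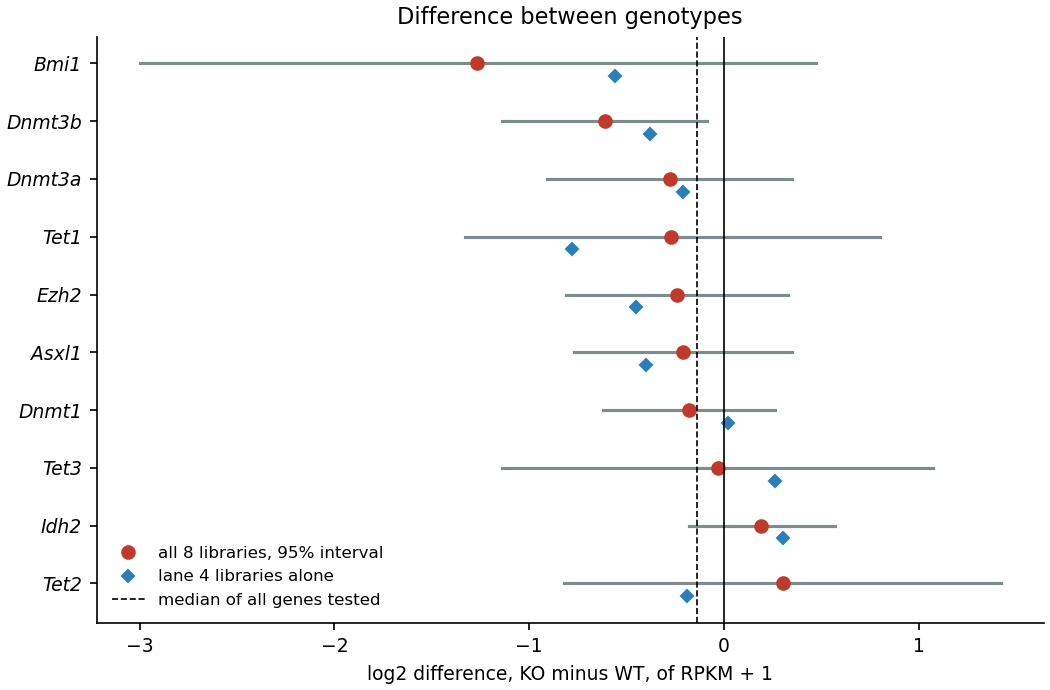
Log2 difference of RPKM + 1, KO minus WT, for each of the 10 genes with its 95% interval from limma on 8 libraries (red circles, grey lines) and the value from the lane 4 libraries alone (blue diamonds). The interval of Dnmt3b, -1.14 to -0.09, is the one that leaves out 0; the dashed line is the median of all genes tested, -0.14.

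The intervals show which sizes the 8 libraries leave possible. For Dnmt1 and Idh2 they ran from -0.62 to 0.26 and from -0.18 to 0.57, whereas for Tet1, Tet2, Tet3, Dnmt3b and Bmi1 they ran past 1 or -1. Quantile normalization moved the median of all genes from -0.14 to 0.00 and turned Tet3 to 0.22. Relative to the median of -0.14, the difference was -0.48 for Dnmt3b, -1.13 for Bmi1, 0.33 for Idh2 and 0.44 for Tet2, and it lay between -0.14 and 0.10 for the other 6 genes.

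The other genes of the same machinery gave no calls either. Of 60 cofactors, readers and erasers of DNA methylation and subunits of PRC2 and PRC1, 56 were tested, and 0 passed in either direction by limma; 0 had an unadjusted p under 0.05 and in 0 did the groups not overlap. Their median log2 difference was -0.12, with 22 positive and 34 negative. In lane 4 alone the median was -0.03, with 25 positive and 31 negative, and 6 had an unadjusted p under 0.05, as 11% of all genes did there. These 6 were Idh1 and L3mbtl2, at 0.85 and 1.08, and Cxxc5, Pcgf5, Rnf2 and Mtf2, at -1.07, -0.81, -0.89 and -0.51; Cxxc5, L3mbtl2 and Mtf2 are named here after their values were seen. Cofactors and readers of DNA methylation had 7 positive and 6 negative of 13 (median 0.10; in lane 4 alone 4 and 9, median -0.03). Mbd3, a subunit of a nucleosome-remodelling and deacetylase complex, was at 95.9 ± 39.7 RPKM in KO and 68.7 ± 13.2 RPKM in WT, and Mbd2, which binds methylated CpG, at 77.0 ± 13.8 RPKM in KO and 73.4 ± 21.4 RPKM in WT. Genes of 5-methylcytosine removal and 2-oxoglutarate supply had 4 positive and 8 negative of 12 (median -0.12; in lane 4 alone 7 and 5, median 0.10). The repair nuclease gene Apex1 was at 72.2 ± 23.1 RPKM in KO and 68.2 ± 9.08 RPKM in WT, and the Krebs cycle genes Idh3g and Idh3a had differences of -0.09 ± 0.29 and -0.13 ± 0.22, which turned to 0.13 and 0.17 in lane 4 alone.

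PRC2 subunits had 3 positive and 7 negative of 10 (median -0.08, and -0.19 in lane 4 alone). The scaffold gene Suz12 was at 43.4 ± 7.77 RPKM in KO and 47.1 ± 4.25 RPKM in WT, and Eed, whose product binds the methylated histone, at 18.8 ± 2.28 RPKM in KO and 19.2 ± 3.68 RPKM in WT. The histone chaperone genes Rbbp7 and Rbbp4 had differences of 0.12 ± 0.19 and -0.15 ± 0.20. In lane 4 alone Rbbp7 turned to -0.16, Eed stood at 0.06 and Suz12 at -0.34. PRC1 subunits had 8 positive and 13 negative of 21 (median -0.16; in lane 4 alone 11 and 10, median 0.06). The ubiquitin ligase gene Rnf2 was at 14.0, 15.4, 24.5 and 25.7 RPKM in KO, against 26.4, 42.8, 21.7 and 24.8 RPKM in WT (difference -0.52 ± 0.30, limma adjusted p = 0.696), and in lane 4 alone the difference was -0.89 ± 0.30. Its paralog Ring1 had -0.57 ± 0.93 and 0.23 ± 0.41 in lane 4 alone, with KO3 at 0.0218 RPKM. Among other subunits, Bcor had -0.42 ± 0.23 and Pcgf5 0.05 ± 0.46, and Pcgf5 turned to -0.81 ± 0.27 in lane 4 alone and to -0.85 without WT2, KO3 and KO4. Partners of ASXL1 and H3K27 demethylases had 4 positive and 6 negative of 10 (median -0.13), among them the demethylase genes Kdm6b, at 7.33 ± 2.21 RPKM in KO and 14.2 ± 10.1 RPKM in WT, and Kdm6a, at 10.2 ± 7.13 RPKM in KO and 11.2 ± 5.10 RPKM in WT. Kdm6a had a difference of -0.18 ± 0.51, and -0.41 ± 0.48 in lane 4 alone. Hcfc1 and Mbd6, also of this list, had -0.09 ± 0.22 and 0.07 ± 0.30.

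**Figure D4:**
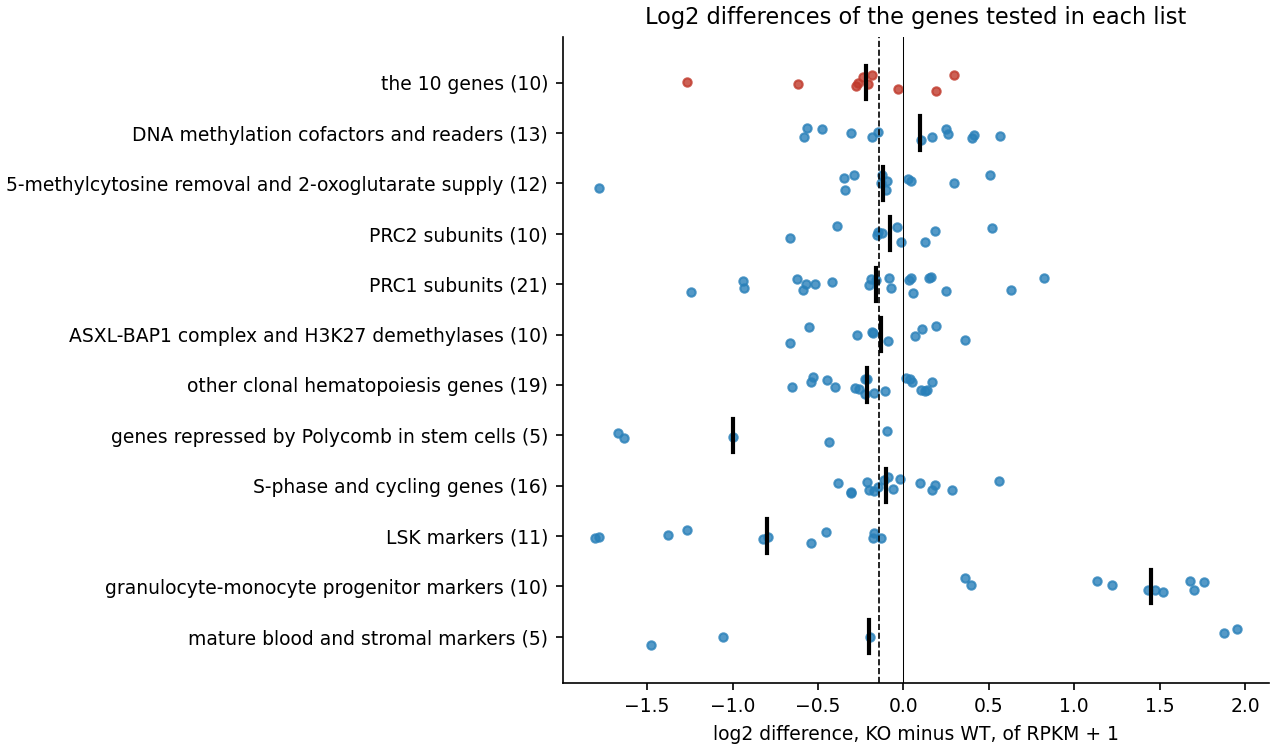
Log2 difference of RPKM + 1, KO minus WT, of every tested gene in each list over all 8 libraries (points, number tested in brackets, the 10 genes in red) with the list median (black bar) and the median of all genes tested (dashed line at -0.14). The lists of DNA methylation and Polycomb regulators have medians of -0.22 to 0.10. The genes repressed by Polycomb in stem cells have -1.0, the LSK markers -0.80 and the granulocyte-monocyte progenitor markers 1.45.

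Among 10 genes that Polycomb complexes are known to hold down in blood stem cells or other tissues, 5 were tested and 5 had negative differences (median -1.0). The same 5 were negative in lane 4 alone (median -0.78). Cdkn2a, which encodes p16Ink4a and p19Arf and is the best known target of BMI1, was listed at 0 in all 8 libraries, and its neighbour Cdkn2b was listed at 0 in 7 and at 0.248 RPKM in WT3. The homeobox gene Hoxa9, which LSK cells express, was at 21.6 ± 7.28 RPKM in KO and 29.2 ± 7.91 RPKM in WT (difference -0.44 ± 0.30, limma adjusted p = 0.725; -0.80 ± 0.28 in lane 4 alone). Hmga2, a chromatin protein gene of fetal stem cells, was at 3.34, 8.10, 15.9 and 6.00 RPKM in KO, against 15.9, 12.7, 21.0 and 13.6 RPKM in WT. Its difference was -1.0 ± 0.43 (limma adjusted p = 0.645), and -1.39 ± 0.37 in lane 4 alone. Hoxb4 was at 5.41, 3.38, 0 and 0 RPKM in KO, against 2.67, 14.4, 5.16 and 6.52 RPKM in WT (difference -1.64 ± 0.76, and -0.43 ± 0.55 in lane 4 alone). Hoxa10, chosen after its values were seen, was at 2.0, 2.91, 0 and 0 RPKM in KO, against 4.11, 3.95, 5.96 and 5.87 RPKM in WT (-1.67 ± 0.58, limma adjusted p = 0.626; -0.78 ± 0.39 in lane 4 alone). Over all 8 libraries Hmga2 and Hoxa10 had an unadjusted p under 0.05, a class that held 4.74% of all genes as lower. Hoxa10 lay lower in KO without overlap, as 3.88% of all genes did. Hmga2 and Hoxa9 had such a p in lane 4 alone, as 11% of all genes had there. Hoxa9, Hoxa10, Hoxb4 and Hmga2 are also known as genes of stem and early progenitor cells, and the LSK markers were lower in the same libraries; the part of this was not tested.

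Other genes recurrently mutated in clonal hematopoiesis had 7 positive and 12 negative differences of 19 tested (median -0.21), and none passed. Lane 4 alone gave 5 positive and 14 negative (median -0.36). There 4 had an unadjusted limma p under 0.05, as 11% of all genes had. These were Jak2, Phf6, Sf3b1 and Stag2, all negative and named after their values were seen. The splicing factor gene Srsf2 had a log2 difference of 0.05 ± 0.15. U2af1, another, was at 132.8 ± 76.0 RPKM in KO and 139.3 ± 40.4 RPKM in WT, with a difference of -0.21 ± 0.40 that turned to 0.52 ± 0.28 in lane 4 alone. Gnas, a G protein subunit gene, was at 195.7 ± 49.3 RPKM in KO and 216.2 ± 28.2 RPKM in WT. Chosen after their values were seen, the splicing factor gene Sf3b1 was at 66.6 ± 14.7 RPKM in KO and 95.5 ± 13.2 RPKM in WT (-0.53 ± 0.21, limma adjusted p = 0.634), and the cohesin gene Rad21 at 82.1 ± 9.0 RPKM in KO and 108.9 ± 15.1 RPKM in WT (-0.40 ± 0.17, limma adjusted p = 0.645). Over all 8 libraries Sf3b1 and Rad21 were the 2 of 19 with an unadjusted p under 0.05, and Rad21 was the sole one without overlap. Of all genes tested 4.74% were lower with such a p, and 3.88% were lower without overlap. Sf3b1 stood at -0.49 ± 0.19 and Rad21 at -0.44 ± 0.20 in lane 4 alone.

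For each of the 10 genes the profile most like it was sought among all genes tested, by the root mean square difference of log2(RPKM + 1) over the 8 libraries after centring each gene on its mean. Smaller values mean more alike. The nearest profiles were Hps5 (0.113) and Scaf8 (0.126) to Dnmt3b, Tmem39b (0.0832) and Syk (0.117) to Dnmt1, and Psip1 (0.0932) to Dnmt3a. To Tet1 they were Ttc9c (0.0868) and Ccng2 (0.138), to Tet2 Ranbp10 (0.138) and Crebzf (0.145), and to Tet3 Zscan29 (0.157) and Ankrd44 (0.212). To Ezh2 they were Adipor2 (0.105) and Ccsap (0.140), to Bmi1 Tnfrsf10b (0.169) and B3gnt5 (0.205), to Asxl1 Rcbtb1 (0.0391) and Dicer1 (0.1), and to Idh2 Pcbp1 (0.0847) and Gm5088 (0.0962). Among the 10 genes themselves Dnmt3a and Asxl1 were each other's nearest, at 0.221, and so were Tet1 and Ezh2, at 0.286. A flat profile would lie at 0.299 from Dnmt3a, 0.296 from Asxl1, 0.424 from Tet1 and 0.354 from Ezh2, so these likenesses were loose. Each such profile holds the libraries that stood apart, and their part in the likeness was not tested.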

How the data were processed

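RNA of LSK cells was measured in 8 libraries, 4 KO and 4 WT, grouped by their titles. The deposited values are RPKM made by the authors, 1 per Entrez gene and library. No source names that unit; it was taken from the values, which times transcript length sum to 1.017 to 1.038 M (mega) per library. TopHat, edgeR and build mm9 were used per the submitters' processing notes, with no role or version; which counter and annotation were used is not given in the sources used here. Of 24112 IDs, 24029 were matched to symbols of a GRCm38 gene table. Depth was estimated on genes of a single coding transcript at 0.2 RPKM or below; 47.2% to 73.4% of the values compared were whole reads within 0.05, so reads were not recovered and no count test was run.

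log2(RPKM + 1) was fitted with limma 3.58.1 (R 4.3.3; genotype as the sole term, robust eBayes with a trend, 8 libraries) over the whole table. Shares were compared by 2-sided exact permutation of the libraries. The steps were checked on simulated data. Same-numbered libraries did not deviate together (correlations -0.08 to -0.038), so no pairing by number was seen, which does not exclude a shared origin. The 10 genes, lists and alternatives were chosen with earlier results of these data known. Named were the 10 genes, Traf6, the 3 highest genes of each pathway list, a list of paralogs, partners and Mki67, and the 2 nearest profiles, of which 1 is not reported here. Promoter windows are RefSeq (GRCm38.p6), a build other than that of the counts.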

Additional observations from a re-analysis of the deposited data

Results flagged for a closer look

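In a group of 4 libraries, a library was singled out where its gap to the nearest other exceeded Dixon's critical share of the group's range; 42 groups of values were examined and chance flags about 1 in 20. Of these, 3 were singled out, each a share within a gene family. KO3 stood apart from the other KO libraries in the Tet2 share of the TET sum, at 46.0%, against 14.3, 15.1 and 17.4% (gap over range 0.902), and in the Tet3 share, at 21.1%, against 68.9 to 77.8% (gap over range 0.842). These shares are parts of 1 sum and not separate observations. WT1 stood apart in the Dnmt1 share of the DNMT sum, at 61.5%, against 72.6 to 74.2% in the other WT libraries (gap over range 0.877).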

How the results depend on the processing

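With 4 libraries a group, intervals of the log2 difference are about 1 to 2 wide for most of the 10 genes, and lane 4 alone leaves 2 KO libraries. Over 24 results and 19 alternatives 353 values were computed. Of these, 309 stayed the same, 31 turned and 13 moved, and the cause was not tested. For differences and shares, the same means the same direction and side of the threshold. For counts of genes, it means equal to the main count or within a set ratio of it. Part of the 309 could not turn, since the replicate block, the filters and the eBayes setting leave the differences themselves unchanged. Exact p-values of shares cannot fall below 0.0667 in lane 4 alone or 0.125 with the replicate block, so no share could pass there. The log2 difference of Tet2 was -0.19 with lane as a covariate and in lane 4 alone, -0.20 with library weights and -0.37 without WT2, KO3 and KO4. That of Tet3 was 0.22 after quantile normalization, 0.26 with lane as a covariate and in lane 4 alone, 0.40 with weights and 0.50 without those 3 libraries, and that of Dnmt1 was 0.02 with lane as a covariate and in lane 4 alone and 0.08 without the 3. In lane 4 alone the differences in shares were -3.75 percentage points for Tet2, 14.8 for Tet3, -1.02 for Dnmt3a, -1.65 for Asxl1 and -6.02 for Bmi1; without the 3 libraries they were -7.36 for Tet2, 20.6 for Tet3, -0.689 for Dnmt3a and -6.67 for Bmi1. Genes passing the threshold numbered 2 in lane 4 alone, 164 with weights and 3 without the 3 libraries, against 0; leaving out each library in turn gave 0 to 2. Of the 10 genes, 0 had an unadjusted p under 0.05 with lane as a covariate, in lane 4 alone or with the replicate block, and 2 with weights (Tet1 and Ezh2, not Dnmt3b), against 1 (Dnmt3b); without WT2, KO3 and KO4 the 1 was Ezh2. Leaving out each library gave 0 to 2, and 7 to 8 negative differences (these 2 counts were added after seeing the data). Leaving out each library gave log2 differences of -0.29 to 0.42 for Tet3 and, in percentage points, -2.85 to 7.71 for the Tet2 share, -6.33 to 12.6 for Tet3, -1.46 to 0.821 for Dnmt3a, -0.0118 to 2.62 for Ezh2 and -2.18 to 4.24 for Asxl1. With the replicate block, although no pairing by number was seen, Dnmt3b kept -0.61 (limma unadjusted p = 0.0642) and 0 genes passed. Tet1 and Tet2 were not tested under a minimum mean of 5 RPKM.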
